A study of Mus musculus with 12 samples.

Results

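The wild-type mouse embryonic stem (ES) cells kept in LIF were set against the other 3 groups of the series: 3 arrays of the 12, chosen by sample title, against 9. A gene was taken as set apart when its lowest wild-type LIF value lay above the highest value on all other 9 arrays, or its highest below their lowest. Of 24807 genes tested, 11877 were set apart, 5539 of them higher in wild-type LIF and 6338 lower. The 4 groups of 3 arrays each were wild-type LIF, wild-type 2i+LIF, Nat1-null LIF and Nat1-null 2i+LIF, named by genotype and by what was added to the medium. All were grown in the submitters' standard ES cell medium on gelatin, so LIF was common to all 4 groups, and wild-type LIF was the group with neither the mutation nor 2i. The labels name no parental line or clone and leave it unsaid whether a group's 3 arrays stand for 3 cultures; p-values below therefore measure only the spread among these samples. Total RNA was labelled with Cy3 and hybridised to single-colour Agilent arrays.

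LIF is a cytokine that signals through the receptor chains Lifr and gp130 to the transcription factor Stat3 and sustains self-renewal of mouse ES cells. 2i is the name for a pair of inhibitors, of the kinases Mek and Gsk3, which hold ES cells close to the naive epiblast of the preimplantation embryo; cells in LIF without them express more lineage genes and vary more from cell to cell. Nat1 is read as a former name of Eif4g2 (also p97 or DAP5), a relative of the scaffold factor eIF4G that supports translation initiation without the cap-binding protein eIF4E.

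All levels below are the deposited log2 values, on which 0 is each array's 75th percentile, and a difference is wild-type LIF minus the mean of the 3 other groups, with its standard error (SE). "Called" means a Benjamini-Hochberg adjusted p under 0.05 in limma, adjusted over all 24807 genes. Between 61.2% and 66.3% of spots were well above background on the wild-type LIF arrays and 49.8% to 63.4% on the others, and none was saturated; the number of arrays limits the precision. The targeted gene was lower in both Nat1-null groups: Eif4g2 stood at 4.55, 4.49 and 4.44 on the wild-type LIF arrays, against 4.23, 4.10 and 4.29 in wild-type 2i+LIF, 1.33, 1.26 and 1.23 for Nat1-null LIF and 1.22, 1.26 and 1.41 for Nat1-null 2i+LIF. The wild-type LIF arrays came from 1 slide, the wild-type 2i+LIF arrays from another and both Nat1-null groups from the last, so wild-type LIF and its slide cannot be told apart. Replicates differed more in the Nat1-null groups (SD of the difference between arrays 0.54 to 0.66) than in wild-type LIF (0.29 to 0.30).

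Genes set apart were 22.3% of all genes tested in the higher direction and 25.5% in the lower. Beside that rule, 8141 genes (32.8%) were called higher and 9108 (36.7%) lower against the mean of the other groups. In all 3 single comparisons 4574 genes (18.4%) were called higher and 5507 (22.2%) lower; these comparisons share the wild-type LIF arrays. With slide as a random block the calls came to 2906 higher and 3522 lower. That fit has 2 means, wild-type LIF and all other arrays together, so differences among the other 3 groups add to its spread. A call lost in it, here and below, cannot tell such differences from an effect of slide. Of all genes, 3173 (12.8%) were set apart, called and at least 2-fold higher, against 1733 (6.99%) lower. Among genes well above background on all 12 arrays the order was the other way, with 1234 set apart and at least 2-fold higher and 1561 lower, and under normexp background correction the 3173 came to 1799, while without scaling the 1733 came to 884. Fitted differences of at least 16-fold were found for 270 genes set apart higher and 23 set apart lower. The median difference was 1.21 for genes set apart higher and -0.68 for those set apart lower, against -0.04 over all genes.

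Many of the higher genes were close to background elsewhere. Of the genes set apart higher, 61.7% were bright, meaning well above background on all 12 arrays, against 95.6% of the genes set apart lower and 77.2% of all genes. A gene was kept if some group had it well above background on all 3 of its arrays. Of all genes tested, 1911 passed this filter through wild-type LIF alone, and 1124 of these were set apart higher and 2 lower. For such genes the filter itself favours a higher wild-type LIF value. The other 3 groups were not alike: 15131 genes (61%) differed among them in an F-test, including 62.1% of the genes set apart higher and 62.7% of those set apart lower. The group nearest to wild-type LIF was wild-type 2i+LIF for 57.6% of the genes set apart higher, Nat1-null 2i+LIF for 21.5% and Nat1-null LIF for 20.9%; for the genes set apart lower the shares were 47.3%, 15.4% and 37.3%.

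The same rule applied to each of the other groups picked fewer genes. Among genes well above background on all 12 arrays, wild-type LIF had 411 genes set apart and at least 4-fold higher than the mean of the others and 285 at least 4-fold lower. The counts were 19 and 57 for wild-type 2i+LIF, 83 and 138 for Nat1-null LIF, and 45 and 62 for Nat1-null 2i+LIF. The balance of directions depended on the scaling of the arrays. Without scaling, the median difference over all genes was 0.31 in place of -0.04, 74.8% of calls were higher in place of 47.2%, and 32.3% of the genes set apart lower kept that place, against 99.7% of those set apart higher. Of the genes set apart, called and at least 2-fold, 93.4% were still set apart.

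**Figure D1:**
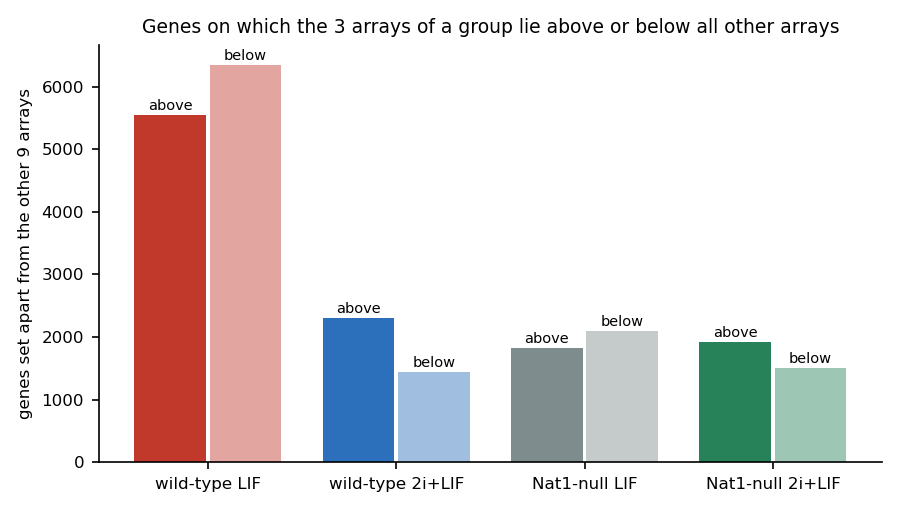
Number of genes (y axis) lying above or below all other 9 arrays for each group, with wild-type LIF leftmost; bars start at 0 and have no error because each is a single count. Wild-type LIF has 5539 genes above and 6338 below, more than any of the other 3 groups, for which the counts lie between 1441 and 2304.

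Genes of actin filaments and smooth muscle contraction were mostly higher in wild-type LIF. Of the 24 listed genes 22 were tested, and 19 of 22 were set apart higher and 1 lower (median difference 2.88, and 2.68 over the 17 bright members, with 14 higher and 1 lower). Over all bright genes, 17.8% were set apart higher and 31.6% lower. The medians of the list were 2.58 against wild-type 2i+LIF, 3.25 against Nat1-null LIF and 2.77 against Nat1-null 2i+LIF.

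Acta2, smooth muscle alpha-actin, stood at 6.33, 6.22 and 6.35 on the wild-type LIF arrays, against -1.84, -1.55 and -1.87 in wild-type 2i+LIF, -3.03, -3.66 and -3.28 for Nat1-null LIF and -1.84, -2.57 and -1.80 for Nat1-null 2i+LIF. No array of another group came near the wild-type LIF values, and the difference was 8.69 (SE 0.18, adjusted p = 4.63e-10 in limma), or 412-fold. The skeletal actin gene Acta1 stood at 3.93, 3.92 and 4.01 on the wild-type LIF arrays, against -2.90, -2.83 and -2.95 in wild-type 2i+LIF, -3.18, -3.48 and -3.21 for Nat1-null LIF and -2.58, -2.996 and -2.37 for Nat1-null 2i+LIF. Its wild-type LIF arrays were all well above the other 9 (difference 6.90, SE 0.12). Cnn1, which encodes the actin-binding protein calponin 1, stood at 4.47, 4.46 and 4.59 on the wild-type LIF arrays, against -2.51, -2.40 and -2.73 in wild-type 2i+LIF, -1.91, -1.46 and -1.96 for Nat1-null LIF and -2.58, -2.51 and -2.31 for Nat1-null 2i+LIF. The groups did not overlap, and the difference was 6.77 (SE 0.11). Myl9, the regulatory light chain of non-muscle and smooth muscle myosin, differed by 5.88 (SE 0.24) and the actin-binding protein Tagln by 4.38 (SE 0.10). The cardiac actin Actc1 differed by 9.86 (SE 0.62), but only 3 of the other 9 arrays were well above background, and the enteric actin Actg2 was on none of them, which puts it at least 34.7-fold higher.

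Not all of the cytoskeletal genes took part. Csrp2, a LIM protein of smooth muscle, was set apart lower (-0.89), the non-muscle myosin heavy chain Myh9 was called lower without being set apart (-0.30), and Tagln2 had a difference of -0.01 with an adjusted p of 0.975. The smaller differences of the list included the tropomyosins Tpm4 (1.20) and Tpm1 (1.46), the focal adhesion protein vinculin, Vcl (1.25), and filamin A, Flna (0.68). Csrp2, Myh9, Tpm4 and Flna lost their calls with slide as a random block (adjusted p between 0.0543 and 0.577). Without scaling the sign turned for Myh9 (0.05).

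**Figure D2:**
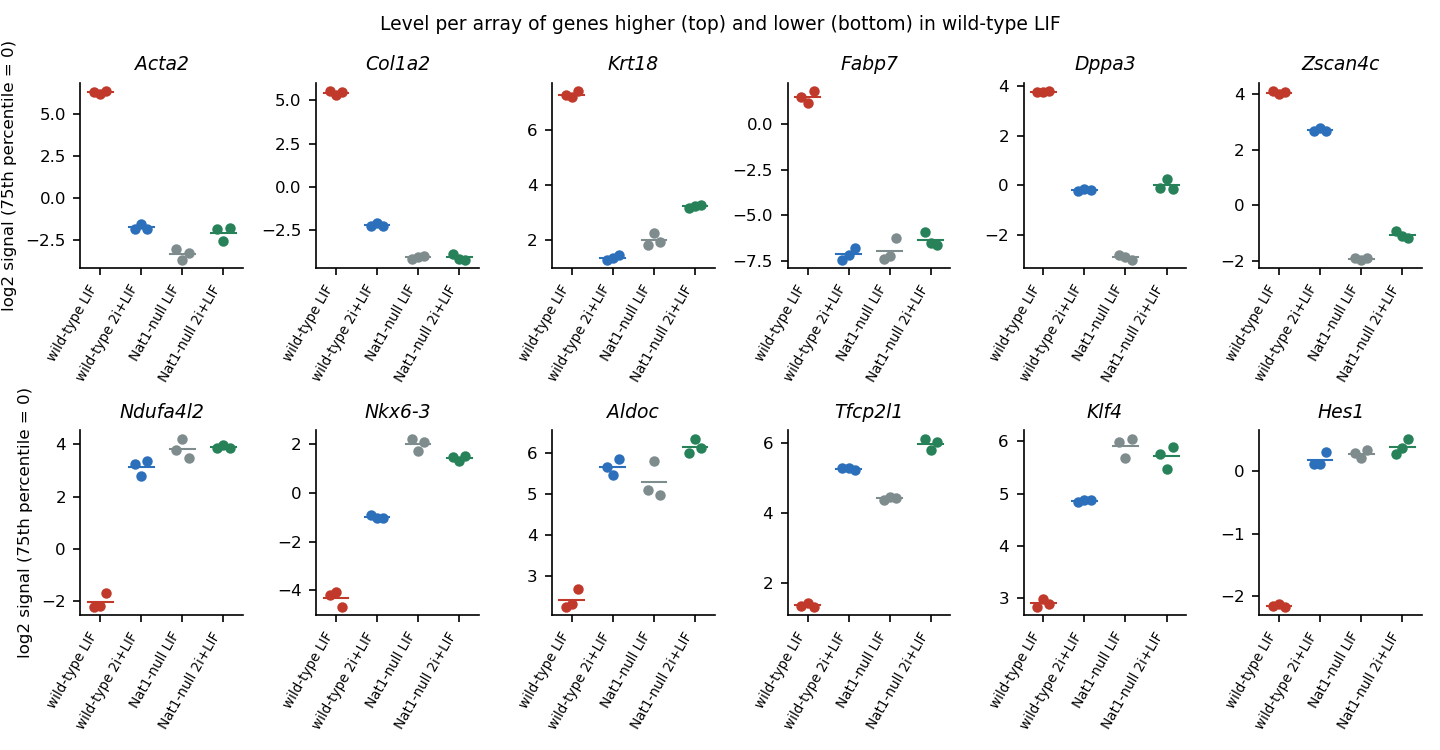
Deposited log2 level (y axis, 0 is the array's 75th percentile) on each array for 12 genes, one point per array, groups along the x axis with wild-type LIF leftmost. In the upper panels (Acta2, Col1a2, Krt18, Fabp7, Dppa3, Zscan4c) the 3 wild-type LIF points lie above all 9 others, and in the lower panels (Ndufa4l2, Nkx6-3, Aldoc, Tfcp2l1, Klf4, Hes1) they lie below all 9.

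Genes of this kind are known targets of serum response factor (SRF), which binds the CArG box, sought here as CCWWWWWWGG, W being A or T. The promoters of 3 of them are shown because they carry that box close to the start site. Each runs from 250 bases before to 50 bases after the start site, 5′ to 3′ on the gene's strand, from RefSeq on build GRCm38.p6, with the box in capitals. Acta1 lies at chr8:123894726-123895025 on the minus strand with the box starting 73 bases before the start site, Actc1 at chr2:114052826-114053125 on the minus strand with the box 47 bases before it, and Myl9 at chr2:156775214-156775513 on the plus strand with the box 161 bases before it.
Acta1: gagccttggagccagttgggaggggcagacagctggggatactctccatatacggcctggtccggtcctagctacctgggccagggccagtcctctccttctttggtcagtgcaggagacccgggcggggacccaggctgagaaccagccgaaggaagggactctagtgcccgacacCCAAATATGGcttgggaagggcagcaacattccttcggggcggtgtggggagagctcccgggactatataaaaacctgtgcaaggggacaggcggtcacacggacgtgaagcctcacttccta
Actc1: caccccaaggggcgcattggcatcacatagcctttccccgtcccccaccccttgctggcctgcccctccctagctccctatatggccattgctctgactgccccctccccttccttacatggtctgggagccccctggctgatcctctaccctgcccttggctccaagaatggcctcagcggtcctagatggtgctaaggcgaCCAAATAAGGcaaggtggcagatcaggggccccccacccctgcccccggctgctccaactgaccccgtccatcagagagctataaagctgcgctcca
Myl9: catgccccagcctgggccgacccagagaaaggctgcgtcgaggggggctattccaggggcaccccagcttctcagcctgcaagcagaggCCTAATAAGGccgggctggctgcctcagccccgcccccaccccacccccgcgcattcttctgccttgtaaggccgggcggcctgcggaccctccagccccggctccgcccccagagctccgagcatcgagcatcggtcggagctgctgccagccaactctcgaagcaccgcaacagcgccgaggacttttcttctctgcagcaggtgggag
A CArG box on either strand was found in the promoters of 5 of the 18 contractile genes in the table (Acta1, Actc1, Cnn2, Myl9 and Vcl), or 27.8%, against 1.8% of the 12372 tested genes with a promoter there. Acta2 and Cnn1 held no exact match in this window. Stretches that miss the pattern by a letter, such as ccctatatgg and ccttgtttgg of Acta2, were not counted for any gene. Of all genes set apart and at least 4-fold higher, 26 of 942 (2.8%) had one, and of those at least 4-fold lower, 5 of 189 (2.6%).

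Genes known as targets of YAP and TEAD, the factors downstream of the Hippo pathway, and of SRF were also mostly higher: 13 of 19 were set apart higher and 1 lower (median difference 2.01, and 1.18 over the 13 bright members, with 9 higher and 1 lower). Ccn2, a secreted matrix-associated protein, stood at 4.83, 4.87 and 4.85 on the wild-type LIF arrays, against 0.35, 0.40 and 0.41 in wild-type 2i+LIF, -0.84, 0.01 and -0.69 for Nat1-null LIF and 1.33, 1.45 and 1.24 for Nat1-null 2i+LIF. All 3 wild-type LIF values exceeded the highest of the others, with a difference of 4.45 (SE 0.15, adjusted p = 5.9e-09 in limma). Its relative Ccn1 differed by 3.75, the LIM protein Fhl2 by 3.55 and the repeat protein Ankrd1 by 8.02, with 1 of the other 9 arrays well above background for Ankrd1. The factors themselves did not follow: Yap1 was set apart lower (-0.57), Wwtr1, which encodes its partner TAZ, was called lower (-0.75), and Srf had a difference of 0.05 (adjusted p = 0.441). The TEAD letters GGAATG, on either strand, were in 11 of 16 promoters of the list (68.8%), against 14.9% of tested genes. They were in 19.6% of genes set apart and at least 4-fold higher and in 15.9% of those at least 4-fold lower. Yap1 and Wwtr1 lost their calls with slide as a random block (adjusted p 0.102 and 0.24).

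Extracellular matrix genes were set apart in part. Of the matrix and collagen list, 17 of 25 were set apart higher and 1 lower (median difference 1.83, and 1.26 over the 15 bright members, with 7 higher and 1 lower); 8 members passed the filter through wild-type LIF alone. Col1a2, a chain of type I collagen, stood at 5.51, 5.30 and 5.50 on the wild-type LIF arrays, against -2.23, -2.06 and -2.22 in wild-type 2i+LIF, -4.14, -4.01 and -3.99 for Nat1-null LIF and -3.83, -4.14 and -4.17 for Nat1-null 2i+LIF. The wild-type LIF arrays were far above all others, of which 8 of 9 were well above background, and the difference was 8.86 (SE 0.08, adjusted p = 1.32e-11). Col1a1, the other chain of type I collagen, differed by 7.25 (SE 0.12), the proteoglycan decorin, Dcn, by 7.40 and thrombospondin 1, Thbs1, by 8.09, both of these with 1 of the other 9 arrays well above background. Fibronectin, Fn1, was set apart the other way (-1.21). Of the focal adhesion and integrin list, 12 of 22 were set apart higher and 3 lower (median difference 0.41, and 0.15 over the 20 bright members, with 10 higher and 3 lower), with zyxin, Zyx (3.53), caveolin 2, Cav2 (at least 2.49-fold) and integrin alpha 3, Itga3 (2.25) highest and the adhesion adaptor Parvb (-1.84) lowest.

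The labelled cell type was checked against its markers. All 10 ES cell markers were well above background on every array, and their summed linear level was 202 to 205 in wild-type LIF, against 256 to 272 in wild-type 2i+LIF, 360 to 449 for Nat1-null LIF and 285 to 319 for Nat1-null 2i+LIF. Of the 10, 6 were set apart lower, Lin28a, which blocks maturation of let-7 miRNAs, was set apart higher (2.10), and Zfp42 did not pass the test (-0.21, adjusted p = 0.102). Dppa4 (0.43, adjusted p = 0.00218) and Utf1 (0.28, adjusted p = 0.0491) were called higher without being set apart, and the call of Utf1 was lost on leaving out any 1 of 9 arrays. Smooth muscle markers summed to 247 to 260 in wild-type LIF, against 6.37 to 7.05, 6.61 to 8.12 and 7.53 to 10.3 in wild-type 2i+LIF, Nat1-null LIF and Nat1-null 2i+LIF. All 5 tested were set apart higher, and Lmod1 was not among the genes tested. Markers of simple epithelium and trophoblast summed to 173 to 199, against 5.08 to 5.61, 5.75 to 8.44 and 16.2 to 18.2 in the same order of groups, with 5 of 7 higher and 1 lower. Cdx2, a defining trophoblast factor, was not among the genes tested. Krt18 made up 83.0% to 83.6% of this sum in wild-type LIF. The sums without Krt18 were 29.4 to 32.6 in wild-type LIF and 1.94 to 8.62 over the other groups. Dppa4 and Utf1 lost their calls with slide as a random block (adjusted p 0.439 and 0.642). Zfp42 passed the test without Nat1-null LIF replicate 2 (adjusted p = 0.0094).

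Markers of fibroblasts and feeder cells moved less evenly. They summed to 74.0 to 77.3 in wild-type LIF, against 39.5 to 44.5 in wild-type 2i+LIF, 17.7 to 19.9 for Nat1-null LIF and 22.4 to 25.9 for Nat1-null 2i+LIF. Vim, the vimentin gene, which many cell types express, made up between 87.8% and 94.6% of this sum on the 12 arrays. Of 11 tested, 3 were set apart higher (Thy1, Vim and Mmp2) and 0 lower. Meox2 was not well above background on any wild-type LIF array, and Twist2 and Prrx1 were so on 1 of the other 9 arrays. Fap was not among the genes tested, and Pdgfrb was called lower (-1.46). Neural markers summed to 27.8 to 28.7, against 9.27 to 10.3, 5.69 to 7.56 and 2.75 to 3.16, with 5 of 6 higher. Endoderm markers overlapped between groups at 1.52 to 1.96 in wild-type LIF and 1.44 to 4.59 over the other groups. Of the 7 tested, 4 were set apart higher and 2 lower. Gata6 made up 16.2% to 28.5% of this sum in wild-type LIF and 48.8% to 79.8% over the other groups. Without Gata6 the sums were 1.27 to 1.40 in wild-type LIF and 0.51 to 1.12 over the other groups. Endothelial and blood markers in wild-type LIF, at 1.85 to 1.92, lay between other groups that spanned 1.31 to 3.22. Of the 5 tested endothelial and blood markers, 4 were set apart higher and 1, Tal1, lower. Ttr and Ptprc were not among the genes tested. In bulk RNA, fewer cells of a type and less RNA per cell cannot be told apart, and the part of other cell types in the results was not tested. Thy1 and Pdgfrb lost their calls with slide as a random block (adjusted p 0.274 and 0.39).

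**Figure D3:**
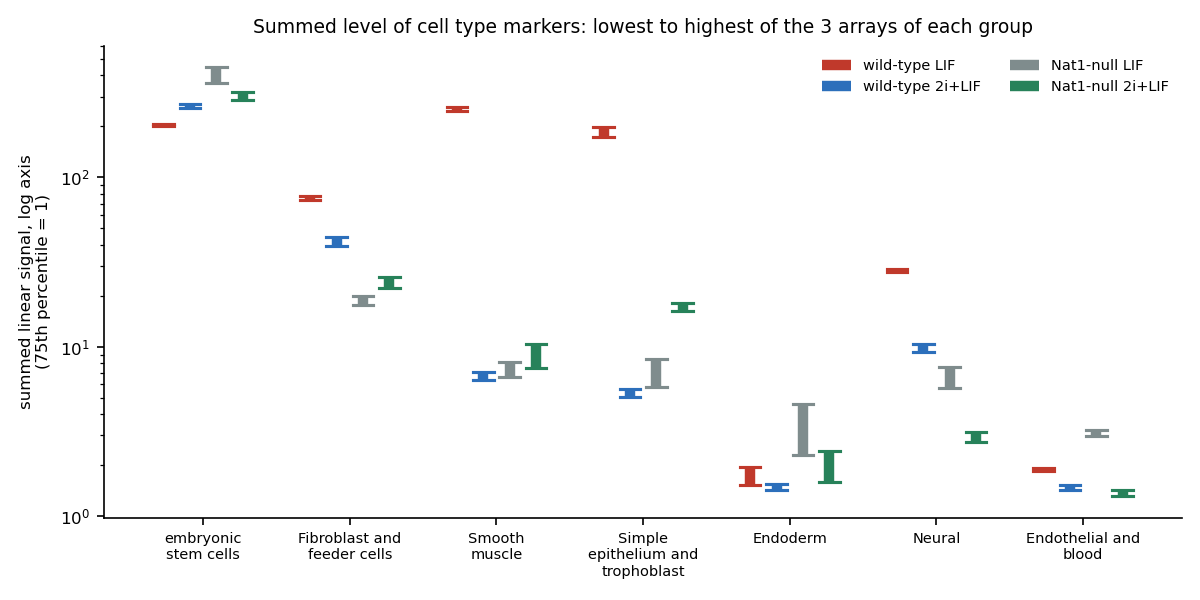
Summed linear level of each cell type's markers (y axis, log scale) for each group, with wild-type LIF leftmost for each cell type; a bar runs between the lowest and the highest of the group's 3 arrays. Smooth muscle and epithelial markers in wild-type LIF (247 to 260 and 173 to 199) lie above all other arrays, ES cell markers (202 to 205) below all others, and endoderm markers overlap.

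Keratins of simple epithelium were among the highest genes. Krt18 stood at 7.24, 7.17 and 7.38 on the wild-type LIF arrays, against 1.31, 1.36 and 1.46 in wild-type 2i+LIF, 1.84, 2.25 and 1.93 for Nat1-null LIF and 3.18, 3.26 and 3.29 for Nat1-null 2i+LIF. The groups did not overlap, with Nat1-null 2i+LIF the nearest, and the difference was 5.06 (SE 0.08, adjusted p = 2.65e-10), or 33.3-fold. Krt8, which pairs with Krt18 in filaments, differed by 4.81 (SE 0.10) and Krt19 by 3.21. The junction genes were mixed. Cdh1, E-cadherin, had a difference of -0.01 (adjusted p = 0.828), which was 0.33 without scaling of the arrays, and Cldn7 did not pass the test (adjusted p = 0.981), while Epcam differed by 0.74; over the list, 10 of 21 were set apart higher and 2 lower (median difference 0.62, and 0.55 over the 17 bright members, with 7 higher and 2 lower). Of the trophoblast list, 6 of 17 were set apart higher and 5 lower (median difference 0.85, and 0.21 over the 13 bright members, with 4 higher and 5 lower); the regulators Gata3 (4.36) and Hand1 (4.74) were higher, with 7 and 2 of the other 9 arrays well above background, and Eomes (-2.11) and Tfap2a (-1.61) lower. Of the fibroblast and feeder list, 10 of 18 were set apart higher and 0 lower (median difference 1.48, and 1.88 over the 12 bright members, with 9 higher and 0 lower); the annexins Anxa3 (5.54) and Anxa1 (5.26) led it. Eomes and Tfap2a lost their calls with slide as a random block (adjusted p 0.12 and 0.0668).

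Many neural genes were higher in wild-type LIF, and many of those were close to background elsewhere. Of the list, 15 of 24 were set apart higher and 0 lower (median difference 2.15, and 0.37 over the 11 bright members, with 3 higher and 0 lower). Nes, the intermediate filament of neural progenitors, stood at 3.62, 3.58 and 3.63 on the wild-type LIF arrays, against 0.45, 0.22 and 0.58 in wild-type 2i+LIF, -1.01, -0.65 and -1.34 for Nat1-null LIF and -0.46, -0.11 and -0.47 for Nat1-null 2i+LIF. Wild-type 2i+LIF was the nearest group and the difference was 3.92 (SE 0.14, adjusted p = 9.11e-09). Fabp7, the brain fatty acid binding protein, stood at 1.47, 1.17 and 1.77 on the wild-type LIF arrays and was well above background on none of the other 9, so it was at least 93.7-fold higher. The neurosecretory protein Vgf (7.53) and the growth cone protein Gap43 (6.57) were well above background on 6 of the other 9 arrays each. Doublecortin, Dcx, of migrating neurons, was on none of them and at least 9.46-fold higher. The astrocyte gene Gfap did not pass the test (-0.69, adjusted p = 0.2), and the stathmin gene Stmn3 and the RNA-binding protein gene Elavl3 were called lower (-0.99 and -0.71). Stmn3 and Elavl3 lost their calls with slide as a random block (adjusted p 0.416 and 0.585).

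Most retinoic acid response genes were set apart higher: 14 of 20 were set apart higher and 1 lower (median difference 1.71, and 1.37 over the 15 bright members, with 9 higher and 1 lower). Crabp2, which carries retinoic acid to its nuclear receptor, stood at 5.72, 5.69 and 5.76 on the wild-type LIF arrays, against 1.47, 1.41 and 1.45 in wild-type 2i+LIF, 1.45, 0.94 and 1.28 for Nat1-null LIF and 0.54, 0.51 and 0.63 for Nat1-null 2i+LIF. All other 9 arrays were far lower, and the difference was 4.65 (SE 0.09, adjusted p = 3.17e-10). The related carrier Crabp1 differed by 4.04, the homeobox gene Meis1 by 4.001, and the receptor Rarb by 1.37. The retinol-oxidising enzyme Rdh10 stood at -1.53, 0.34 and -1.57 on the wild-type LIF arrays, and its difference of 2.40 was 1.77 without replicate 2. Stra6, the membrane receptor for retinol-binding protein, differed by 4.55 with 4 of the other 9 arrays well above background. Hoxa5 and Meis2 did not pass the test (0.18 and 0.08). Rarb lost the call with slide as a random block (adjusted p = 0.33). Hoxa5 passed the test without Nat1-null LIF replicate 3 (adjusted p = 0.0193).

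Hox genes, which pattern the body axis, are described here by cluster and by place in the cluster. Of the genes of paralog groups 1 to 8, 10 of 20 tested were set apart higher and 1 lower, with a median difference of 1.10, and of groups 9 to 13, 0 of 13 were set apart higher and 9 lower, with a median of -2.15. Over all genes tested, 22.3% were set apart higher and 25.5% lower. In the HoxB cluster 7 of 8 genes of groups 1 to 8 were set apart higher (median of fitted differences 3.26), with Hoxb2 (5.40) and Hoxb5 (3.47) well above background on 5 and 4 of the other 9 arrays. Hoxb1, Hoxb3 and Hoxb8 were well above background on none of these 9 arrays and at least 7.62-fold, 6.79-fold and 4.95-fold higher. Of groups 1 to 8 elsewhere, 3 of 7 HoxA genes were set apart higher and 1 lower, and 0 of 3 HoxC and 0 of 2 HoxD genes were set apart in either direction. Of groups 9 to 13, 3 of 4 HoxA genes and 4 of 5 HoxC genes were set apart lower, with medians of -3.33 and -2.63. Hoxa10, Hoxa11 and Hoxc11 were well above background on all other 9 arrays and on none of the wild-type LIF arrays, at least 16.4-fold, 10.9-fold and 10.702-fold lower. Hoxb13 differed by -3.78 and Hoxd13 by -1.25. Hoxb6 to Hoxb1, with the neighbouring Skap1, formed a run of 7 neighbouring genes all set apart and at least 2-fold higher on chromosome 11. Of this run, Hoxb6, Hoxb3 and Hoxb1 were among the genes that passed the filter through wild-type LIF alone. Hoxb3 lost the call with slide as a random block (adjusted p = 0.121).

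Runs of at least 4 neighbouring tested genes, all set apart the same way and at least 2-fold, numbered 48 with that one. On chromosome 3 the guanylate-binding protein genes Gbp5, Gbp7, Gbp3, Gbp2b and Gbp2, which interferon induces, had a median difference of 6.26. On chromosome 17 the antigen-processing genes Psmb9, Tap1, Psmb8 and Tap2 had a median of 1.76. On chromosome 1 Tfcp2l1, Gli2, Inhbb, Ralb and Tmem185b were lower (median -2.995). Near-identical copies can hybridise to the same probe in several runs, among them the Tdpoz genes of chromosome 3, the Tcstv genes of chromosome 13 and the Magea genes of chromosome X, and their single values are uncertain.

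Most genes that mark the 2-cell embryo and the rare ES cells resembling it were higher in wild-type LIF. Of the list, 22 of 25 were set apart higher and 2 lower (median difference 3.74, and 3.76 over the 12 bright members, with 9 higher and 2 lower). Zscan4c, of a family active at telomeres of such cells, stood at 4.10, 3.99 and 4.08 on the wild-type LIF arrays, against 2.69, 2.79 and 2.67 in wild-type 2i+LIF, -1.89, -1.95 and -1.90 for Nat1-null LIF and -0.91, -1.09 and -1.18 for Nat1-null 2i+LIF. Wild-type 2i+LIF lay between wild-type LIF and the Nat1-null groups, and the difference was 4.14 (SE 0.06, adjusted p = 1.33e-10), made up of 1.34 against wild-type 2i+LIF, 5.97 against Nat1-null LIF and 5.12 against Nat1-null 2i+LIF. The medians of the list were 1.85, 5.11 and 3.93 in the same order. The family members Pramel7 (4.90) and Pramel6 (4.81) and the arginase gene Arg2 (4.42) were near background elsewhere (5, 6 and 1 of the other 9 arrays), while Zfp352 (-2.07) was set apart lower. Zscan4, Usp17l, Tcstv and Tdpoz copies are near-identical, so a probe may detect several of them. Pramel6 lost the call with slide as a random block (adjusted p = 0.0602).

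Dppa3, an oocyte and germ cell protein that protects maternal methylation in the zygote, stood at 3.76, 3.78 and 3.79 on the wild-type LIF arrays, against -0.22, -0.18 and -0.21 in wild-type 2i+LIF, -2.83, -2.89 and -3.01 for Nat1-null LIF and -0.10, 0.27 and -0.18 for Nat1-null 2i+LIF. It was the naive-state gene set apart against the direction of the rest (difference 4.81, SE 0.08, adjusted p = 2.86e-10). Of the germline list, 14 of 29 were set apart higher and 5 lower (median difference 0.61, and 0.61 over the 27 bright members, with 13 higher and 5 lower). The X-linked homeobox genes Rhox6 (3.74), Rhox9 (3.55) and Rhox5 (2.65) and the Tex19 genes were higher, and the cohesin subunit Stag3 (-1.41) and the meiotic gene Hormad1 (-0.76) lower. Imprinted genes leaned the same way: 21 of 32 were set apart higher and 0 lower (median difference 1.68, and 0.62 over the 23 bright members, with 13 higher and 0 lower). The maternally expressed RNA H19 had 3.76 ± 0.13 in wild-type LIF, against -2.39 ± 0.31 in wild-type 2i+LIF, -4.06 ± 0.38 for Nat1-null LIF and -3.65 ± 0.27 for Nat1-null 2i+LIF (SD, n = 3 each), with 7 of the other 9 arrays well above background. Its neighbour Igf2 was on none of them and at least 7.39-fold higher. Peg3 (5.76), Dlk1 (5.71), Mirg (4.97), Snrpn (4.47), the cell cycle inhibitor Cdkn1c (4.18) and Mest (4.06) were all set apart higher. Igf2r was called lower (-0.39) without being set apart. Rhox6, Rhox9, Hormad1, Snrpn and Igf2r lost their calls with slide as a random block (adjusted p between 0.0528 and 0.369).

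**Figure D4:**
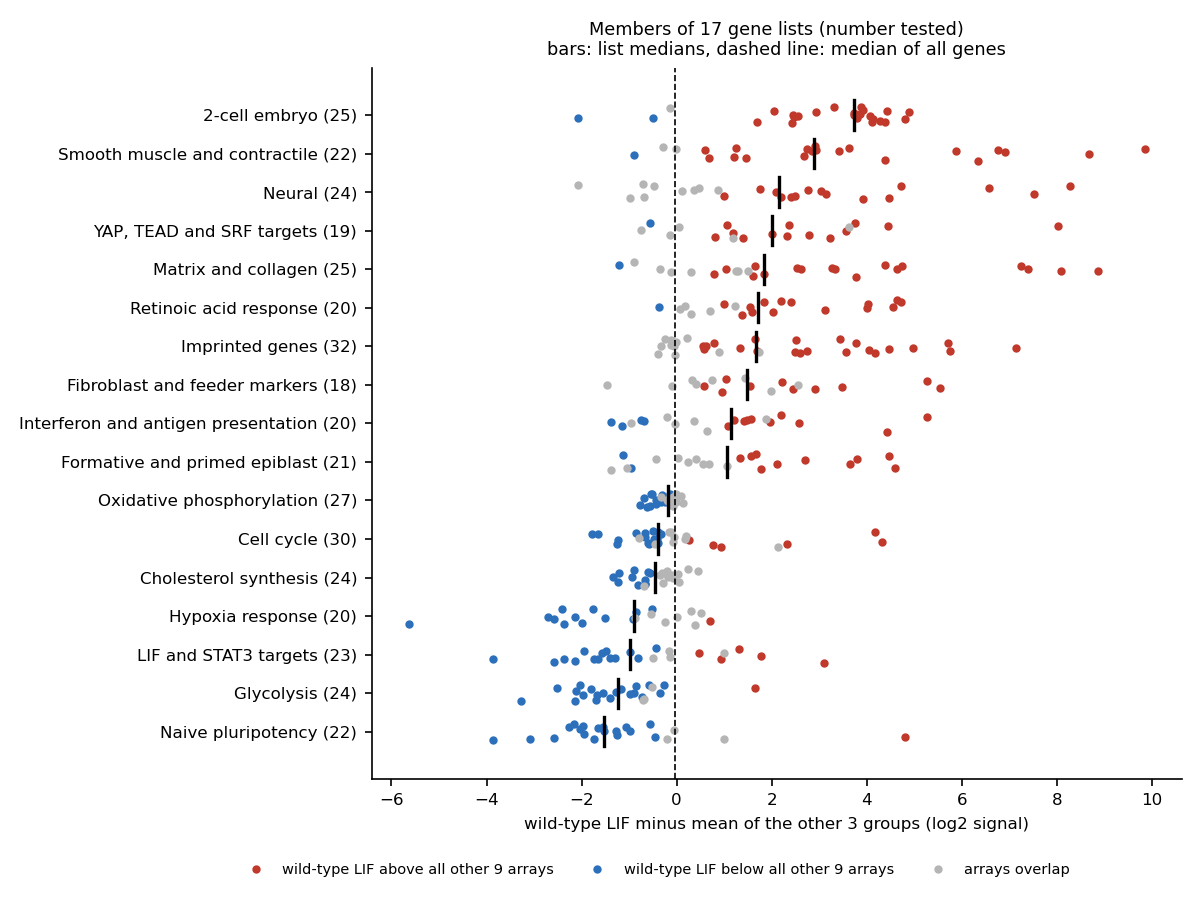
Difference of wild-type LIF minus the mean of the other 3 groups (x axis, log2) for the tested members of 17 gene lists, one point per gene; colours mark genes set apart higher or lower, grey points overlap, black bars are list medians and the dashed line is the median of all genes. The contractile and 2-cell lists lie mostly above 0 (medians 2.88 and 3.74) and the naive pluripotency and glycolysis lists mostly below (medians -1.54 and -1.22).

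Most regulators of naive pluripotency were lower in wild-type LIF: 1 of 22 were set apart higher and 18 lower (median difference -1.54). All 22 were well above background on all 12 arrays. Tfcp2l1, a factor downstream of LIF, stood at 1.34, 1.44 and 1.32 on the wild-type LIF arrays, against 5.28, 5.28 and 5.24 in wild-type 2i+LIF, 4.36, 4.46 and 4.43 for Nat1-null LIF and 6.12, 5.80 and 6.03 for Nat1-null 2i+LIF. The wild-type LIF arrays were below every other array by a wide gap, and the difference was -3.85 (SE 0.06, adjusted p = 2.65e-10), or 14.5-fold lower. Klf4, a zinc finger factor of the same circuit, stood at 2.84, 2.99 and 2.90 on the wild-type LIF arrays, against 4.83, 4.87 and 4.87 in wild-type 2i+LIF, 5.98, 5.67 and 6.05 for Nat1-null LIF and 5.76, 5.47 and 5.90 for Nat1-null 2i+LIF, a difference of -2.58. Nanog stood at 2.29, 2.31 and 2.35 on the wild-type LIF arrays, against 4.31, 4.33 and 4.29 in wild-type 2i+LIF, 3.75, 3.70 and 3.68 for Nat1-null LIF and 3.77, 3.97 and 3.88 for Nat1-null 2i+LIF. Its highest wild-type LIF value lay well below the lowest of the others, and the difference was -1.65 (SE 0.05). Esrrb differed by -2.27, Tbx3 by -3.08, Prdm14 by -2.15, Sox2 by -1.53 and Pou5f1, which encodes Oct4, by -1.27. Zfp42 did not pass the test (-0.21), and Gbx2 was called higher (1.01) without being set apart. Gbx2 lost the call with slide as a random block (adjusted p = 0.338).

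Of genes known as LIF and STAT3 targets, 5 of 23 were set apart higher and 14 lower (median difference -0.98, and -1.34 over the 20 bright members, with 4 higher and 14 lower), although LIF was present in all 4 groups. The lower members included the feedback inhibitor Socs3 (-2.37), the receptor chains Lifr (-1.58) and Il6st (-0.43), Stat3 itself (-0.98), the kinase Pim3 (-1.65) and the adhesion molecule Icam1 (-1.73). The higher members were Osmr, the oncostatin M receptor, which was well above background on no other array (at least 2.81-fold, and 1.83-fold without wild-type LIF replicate 3), the metallothioneins Mt2 (1.79) and Mt1 (1.32), Cebpb (0.93) and Socs1 (0.47). The STAT letters TTCNNNGAA were in 6 of 22 promoters of the list (27.3%), against 8.3% of tested genes. They were in 9.13% of genes set apart and at least 4-fold higher and in 6.88% of those at least 4-fold lower. Of formative and primed epiblast genes, 10 of 21 were set apart higher and 2 lower (median difference 1.05, and 0.69 over the 19 bright members, with 8 higher and 2 lower). Dnmt3b, a de novo DNA methyltransferase, stood at 5.79, 5.75 and 5.79 on the wild-type LIF arrays, against 3.04, 3.41 and 3.19 in wild-type 2i+LIF, 3.69, 3.28 and 3.73 for Nat1-null LIF and 4.21, 3.99 and 4.40 for Nat1-null 2i+LIF, a difference of 2.12. Its wild-type LIF arrays were above all others, as were those of Cdh2, N-cadherin (4.59), and the POU factor Pou3f1 (3.80). Fgf5 differed by 2.69 with 6 of the other 9 arrays well above background, and Otx2 was called higher (0.69) but overlapped another group. Tcf7l1 and Fgf15 were set apart lower (-1.13 and -0.96). Il6st, Mt2, Mt1, Socs1, Fgf5, Otx2, Tcf7l1 and Fgf15 lost their calls with slide as a random block (adjusted p between 0.0667 and 0.382).

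Glycolytic genes were mostly lower in wild-type LIF: 1 of 24 were set apart higher and 20 lower (median difference -1.22), with all 24 bright on all 12 arrays. Aldoc, an aldolase, stood at 2.26, 2.34 and 2.68 on the wild-type LIF arrays, against 5.66, 5.47 and 5.85 in wild-type 2i+LIF, 5.10, 5.82 and 4.97 for Nat1-null LIF and 6.01, 6.36 and 6.12 for Nat1-null 2i+LIF. The groups did not overlap and the difference was -3.28 (SE 0.18, adjusted p = 1.4e-07), or 9.73-fold lower. Slc16a3, which exports lactate, stood at 2.79, 2.89 and 3.31 on the wild-type LIF arrays, against 5.21, 5.14 and 5.40 in wild-type 2i+LIF, 5.38, 5.71 and 5.19 for Nat1-null LIF and 5.78, 5.94 and 5.90 for Nat1-null 2i+LIF, a difference of -2.52. Wild-type LIF replicate 3 was the highest of its group for both genes and still below all others. The hexokinases Hk1 (-2.14) and Hk2 (-1.80), the phosphofructokinases Pfkp (-2.12) and Pfkl (-1.98), Tpi1 (-2.03), Pgk1 (-1.68) and Ldha (-1.41) were also set apart lower, and Gapdh least (-0.26). Eno3, the muscle enolase, was set apart higher (1.65). Gapdh lost the call with slide as a random block (adjusted p = 0.205). Without scaling the sign turned for Gapdh (0.09).

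Of the hypoxia response list, 1 of 20 were set apart higher and 12 lower (median difference -0.89), with Pdk1 in both lists. Ndufa4l2, a mitochondrial protein induced by HIF1, stood at -2.21, -2.17 and -1.69 on the wild-type LIF arrays, against 3.23, 2.80 and 3.35 in wild-type 2i+LIF, 3.77, 4.22 and 3.49 for Nat1-null LIF and 3.84, 3.97 and 3.87 for Nat1-null 2i+LIF. It was the named gene furthest below the others among those bright on all 12 arrays, with a difference of -5.64 (SE 0.17, adjusted p = 3.95e-09). Bnip3, a mitophagy receptor, stood at 3.29, 3.45 and 3.83 on the wild-type LIF arrays, against 6.11, 6.02 and 6.35 in wild-type 2i+LIF, 5.997, 6.54 and 5.76 for Nat1-null LIF and 6.19, 6.65 and 6.35 for Nat1-null 2i+LIF, a difference of -2.70. The prolyl hydroxylase Egln3 (-2.59), the peptide hormone adrenomedullin, Adm (-2.41), and the growth factor Vegfa (-2.14) were set apart lower, while Hif1a itself was set apart higher (0.70) and Car9 did not pass the test (0.39). The medians of the glycolysis list were -1.18, -1.18 and -1.27 and those of the hypoxia list -0.96, -1.32 and -1.15 against wild-type 2i+LIF, Nat1-null LIF and Nat1-null 2i+LIF. Oxidative phosphorylation genes differed less: 0 of 27 were set apart higher and 14 lower (median difference -0.18), and without scaling the median of that list was 0.17. Pdk1 lost the call with slide as a random block (adjusted p = 0.143). Car9 passed the test without Nat1-null LIF replicate 2 (adjusted p = 0.00294).

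HIF binds the hypoxia response element, whose core is ACGTG or GCGTG. Promoters of 3 of these genes are shown, from the same RefSeq table and build, with cores on either strand in capitals, so that CACGT and CACGC are the cores on the other strand. Slc16a3 lies at chr11:120948817-120949116 and Adm at chr7:110627407-110627706, both on the plus strand and with 2 cores each, and Aldoc at chr11:78322823-78323122 on the plus strand with 3 cores. The cores of Aldoc start 50 bases before the start site and 11 and 27 bases after it. Another Aldoc promoter, at chr11:78323948-78324247, held 1 core and is not shown.
Slc16a3: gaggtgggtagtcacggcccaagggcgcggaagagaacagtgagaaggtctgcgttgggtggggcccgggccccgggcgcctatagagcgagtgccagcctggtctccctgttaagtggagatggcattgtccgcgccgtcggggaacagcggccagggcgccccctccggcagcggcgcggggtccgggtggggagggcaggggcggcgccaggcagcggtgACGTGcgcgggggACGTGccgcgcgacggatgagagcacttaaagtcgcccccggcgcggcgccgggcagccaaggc
Adm: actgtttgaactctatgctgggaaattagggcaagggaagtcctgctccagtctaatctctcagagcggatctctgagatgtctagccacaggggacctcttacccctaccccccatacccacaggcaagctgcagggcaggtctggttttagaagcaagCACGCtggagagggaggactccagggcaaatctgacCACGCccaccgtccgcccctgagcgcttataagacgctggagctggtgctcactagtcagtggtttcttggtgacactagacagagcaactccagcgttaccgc
Aldoc: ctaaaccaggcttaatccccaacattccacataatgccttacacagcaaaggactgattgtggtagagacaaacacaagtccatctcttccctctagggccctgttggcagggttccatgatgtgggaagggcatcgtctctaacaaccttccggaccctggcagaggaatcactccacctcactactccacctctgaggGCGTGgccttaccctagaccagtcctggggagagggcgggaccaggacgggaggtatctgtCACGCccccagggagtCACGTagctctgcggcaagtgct
A core was present in 20 of 23 glycolysis promoters (87.0%) and 16 of 17 hypoxia promoters (94.1%), against 63.1% of tested genes. It was in 47.6% of genes set apart and at least 4-fold higher and in 56.1% of those at least 4-fold lower.

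Outside these groups, the genes bright on all 12 arrays with the largest differences were, on the higher side, the actin-binding leukocyte protein Lsp1 (5.60), the stromal membrane protein Cd248 (5.05) and the secreted kinase Pkdcc (4.97). Among genes well above background on all wild-type LIF arrays and no other, the largest bounds were at least 105-fold for Csf1, the macrophage growth factor, 87.5-fold for Gbp2b, 76.4-fold for Ccn4, 46.7-fold for the cytokine Il33, 40.7-fold for Zfp608 and 30.4-fold for Vrtn. On the lower side stood the homeobox gene Nkx6-3, at -4.20, -4.08 and -4.68 on the wild-type LIF arrays, against -0.91, -1.04 and -1.02 in wild-type 2i+LIF, 2.23, 1.73 and 2.11 for Nat1-null LIF and 1.49, 1.31 and 1.51 for Nat1-null 2i+LIF, a difference of -5.14. Both Nat1-null groups were higher than wild-type 2i+LIF for it. Cdx1, a homeobox gene induced by Wnt, stood at -1.75, -1.73 and -1.79 on the wild-type LIF arrays, against 4.23, 4.20 and 4.15 in wild-type 2i+LIF, -0.63, 0.11 and -0.60 for Nat1-null LIF and 5.18, 4.79 and 5.15 for Nat1-null 2i+LIF, a difference of -4.71. Its gap lay mainly against the 2i+LIF groups, and with slide as a random block its adjusted p was 0.177. The other lower genes of this rank were 1600014C23Rik (-5.17), the ion transport regulator Fxyd4 (-4.60), the arginine deiminase Padi2 (-4.53), Islr2 (-4.46), Tlx2 (-4.40), the activin subunit Inhbb (-4.26), the glutamate receptor subunits Grin2c (-4.16) and Grik3 (-4.11), and the antisense RNA Hoxa11os (-4.14). For Tlx2 the adjusted p with slide as a random block was 0.0841. Beside the Hox genes, the largest lower bounds were at least 8.17-fold for Msx3, 8.09-fold for Cox8b, 8.06-fold for A2m, 7.26-fold for Il27ra and 6.63-fold for Foxd1.

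Some genes had nearly the same level on all other 9 arrays and another in wild-type LIF. Hes1, a target of Notch signalling, stood at -2.16, -2.12 and -2.17 on the wild-type LIF arrays, against 0.11, 0.11 and 0.29 in wild-type 2i+LIF, 0.28, 0.20 and 0.33 for Nat1-null LIF and 0.27, 0.36 and 0.51 for Nat1-null 2i+LIF. Its other 9 arrays spanned 0.40, and wild-type LIF was -2.42 away from their group means. Isg15, the interferon-induced ubiquitin-like protein, spanned 0.26 over the other 9 arrays with a difference of 2.20. By the same measure followed Rdh10 (2.40, or 1.77 without wild-type LIF replicate 2, span 0.45), the extracellular glutathione peroxidase Gpx3 (2.05, 0.52), Limd2 (2.19, 0.46), Lsp1 and D630023F18Rik (2.20, 0.45). In the lower direction came the planar polarity cadherin Celsr1 (-2.21, span 0.35), the proprotein convertase Pcsk6 (-2.73, 0.37), the kinase Sik1 (-2.08, 0.37), Lrrc34 (-2.60, 0.38) and Ankrd35 (-2.07, 0.38). The median span over the other 9 arrays was 0.82 for all genes.

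Genes with large differences from the mean could still overlap another group. Myc differed by 2.13 from the mean, made up of 3.62 against wild-type 2i+LIF, 0.69 against Nat1-null LIF and 2.07 against Nat1-null 2i+LIF. Nlrp4f differed by 2.38, made up of -0.40 against wild-type 2i+LIF, 3.73 against Nat1-null LIF and 3.83 against Nat1-null 2i+LIF, so that wild-type 2i+LIF was above wild-type LIF. Cd99 (2.22) and Prkar2b (2.15) were called higher and Tmem117 (-2.35), Pygl (-1.85), Ntn1 (-1.85) and Bhmt (-1.79) lower without being set apart. With slide as a random block none of these 8 was called (adjusted p between 0.142 and 0.404). At the edge of the rule, the genes set apart with the smallest gap were Cdc34, Comtd1, Txndc15 and Eef1aknmt on the higher side (differences 0.32, 0.49, 0.17 and 0.22) and Rcc1l, Dmtf1, Tcf7l1 and Shisa5 on the lower (-0.31, -0.32, -1.13 and -0.33). Just outside it lay Cenpc1 (0.21), Iqsec2 (0.40), Rab4a (0.58) and Cse1l (0.19), and Gm11240 (-0.25), Slc25a51 (-0.33), Zbtb40 (-0.53) and Fam24b (-0.37). Cdc34, Comtd1, Txndc15, Eef1aknmt, Rcc1l, Dmtf1, Tcf7l1, Shisa5, Cenpc1, Iqsec2, Rab4a, Cse1l, Gm11240, Slc25a51, Zbtb40 and Fam24b lost their calls with slide as a random block (adjusted p between 0.116 and 0.478). Without scaling the sign turned for Rcc1l (0.04), Dmtf1 (0.03), Shisa5 (0.02), Gm11240 (0.10) and Slc25a51 (0.02). Txndc15 did not pass the test without wild-type LIF replicate 3 (adjusted p = 0.0596). Eef1aknmt did not pass the test without wild-type LIF replicate 2 (adjusted p = 0.0561).

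Genes were also read by chromosome, over the 12637 genes bright on all 12 arrays with a known position, as the median over a chromosome's genes of each array's deviation from the gene's median over the 12 arrays, less the same median over all these genes. The last step takes out a shift common to all genes of an array. The gene medians and the shares below still rest on the scaled values. Chromosome 11, with 1099 such genes, had a median deviation of 0.15 to 0.17 on the wild-type LIF arrays, against -0.07 to -0.06 in wild-type 2i+LIF, -0.03 to 0.01 for Nat1-null LIF and -0.03 to 0.00 for Nat1-null 2i+LIF. The wild-type LIF arrays lay above all other arrays there, and 39.6% of its genes were set apart higher and 15.5% lower, against 21.1% and 30.5% of all bright genes with a known position. Of the chromosome's genes, 62.3% were higher in wild-type LIF than the mean of the other groups. That share was 62.4% on chromosome 8 and 58.6% on chromosome X, and ran from 33.5% (chromosome 17) to 46.6% (chromosome 12) on the other autosomes. Across the 17 autosomes other than 8 and 11, the shares set apart higher ran between 14.2% and 23.3% and those set apart lower between 26.4% and 39.97%. Chromosome 8 was high in both wild-type groups, at 0.12 to 0.14 in wild-type LIF and 0.15 to 0.17 in wild-type 2i+LIF, against -0.16 to -0.12 for Nat1-null LIF and -0.18 to -0.16 for Nat1-null 2i+LIF. Chromosome 17 was lowest in wild-type LIF, at -0.13 to -0.11, below all other arrays. Wild-type LIF also lay below all other arrays on chromosomes 2, 4, 6, 7, 9, 10, 15, 16 and 19. On chromosome 16 its values were only -0.03 to -0.01. The deviations are relative to all bright genes, and those include chromosomes 8, 11 and X. A value below 0 elsewhere is therefore low beside these genes together and need not be a lower level. Extra copies of chromosomes 8 and 11 are known in cultured mouse ES cells; DNA copy number was not measured here, and its part in these values was not tested.

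The 452 bright genes of chromosome X stood at 0.11 to 0.13 in wild-type LIF, against 0.05 to 0.08 in wild-type 2i+LIF, -0.22 to -0.14 for Nat1-null LIF and -0.07 to -0.03 for Nat1-null 2i+LIF. Of 6 tested Y-linked genes, 4 of 6 were set apart higher and 0 lower (median difference 1.33, and 0.68 over the 3 bright members, with 1 higher and 0 lower), led by Zfy2 (3.71).

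**Figure D5:**
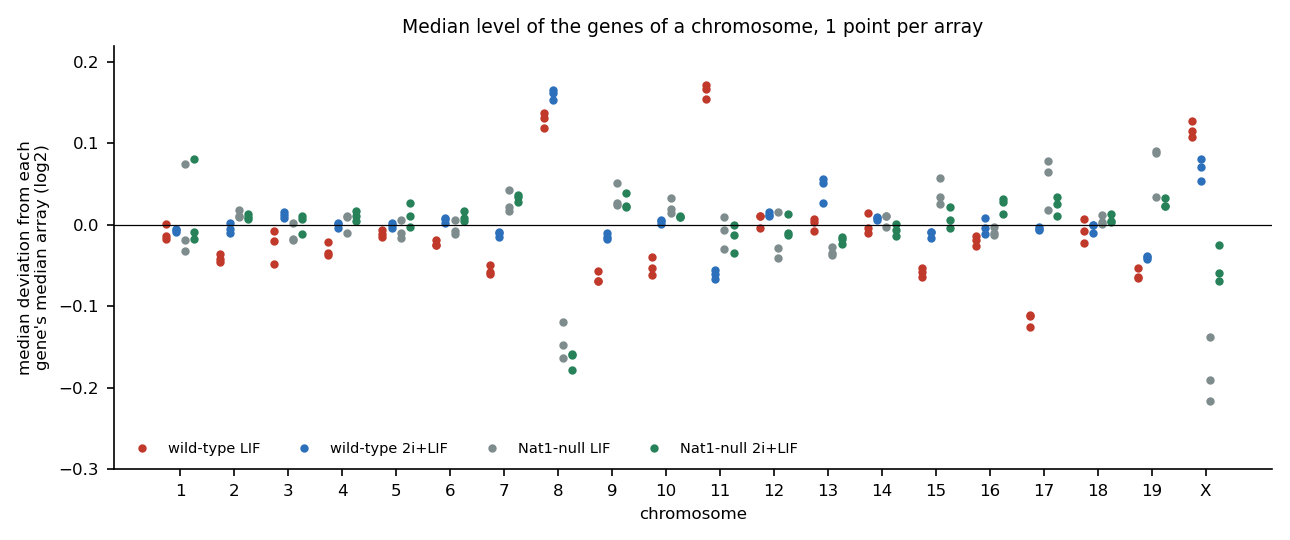
Median log2 deviation of each chromosome's bright genes (y axis, each gene relative to its median over the 12 arrays, and each array to its median over all bright genes) on each array, by chromosome 1 to 19 and X (x axis), with colours for the 4 groups. The 3 wild-type LIF points for chromosome 11 (0.15 to 0.17) lie above all 9 others, and for chromosome 8 both wild-type groups lie above both Nat1-null groups.

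Signalling targets gave mixed results. The lists here and below stand beside 22.3% of all genes tested set apart higher and 25.5% lower, and 17.8% and 31.6% of bright genes. Of ERK feedback and ETS target genes, 5 of 19 were set apart higher and 5 lower (median difference -0.15, and -0.24 over the 17 bright members, with 3 higher and 5 lower), with list medians of 0.62 against wild-type 2i+LIF, -0.71 against Nat1-null LIF and -0.36 against Nat1-null 2i+LIF. Without scaling the list's median against the mean of the other groups was 0.19. Dusp4 (2.94) and Phlda1 (2.73) were set apart higher and Ier3 (-1.39) and Etv5 (-0.99) lower, while Dusp6, the phosphatase of ERK, overlapped the others (1.15). Of immediate early genes, 9 of 22 were set apart higher and 5 lower (median difference 0.32, and -0.04 over the 16 bright members, with 5 higher and 5 lower); Egr1 stood at 1.11, 1.10 and 0.97 on the wild-type LIF arrays, against -4.59, -4.80 and -4.77 in wild-type 2i+LIF, -2.19, -2.004 and -2.09 for Nat1-null LIF and -3.15, -3.10 and -2.99 for Nat1-null 2i+LIF, with 8 of the other 9 well above background. It was lowest in wild-type 2i+LIF, and the difference was 4.36 (SE 0.06). Fosl2 (3.50) was higher and Maff (-1.90) and Fos (-0.81) lower. Of Wnt and TCF targets, 3 of 20 were set apart higher and 2 lower (median difference -0.10, and -0.13 over the 14 bright members, with 1 higher and 2 lower), with Axin2 at -0.11 (adjusted p = 0.599) and Lgr5 on none of the other 9 arrays (at least 2.51-fold higher). Of Nodal, BMP and TGF-beta targets, 9 of 23 were set apart higher and 5 lower (median difference 0.18, and -0.18 over the 20 bright members, with 6 higher and 5 lower); the ligand Tgfb2 (5.89, 6 of the other 9 arrays above background) and the Nodal antagonist Lefty1 (2.99) were higher, and the inhibitory Smad7 (-2.28) and Smad6 (-1.88) lower. Id2 and Id3 were set apart higher (1.80 and 1.78) and Id1 was called lower (-1.14). Dusp6, Fos, Smad6, Id3 and Id1 lost their calls with slide as a random block (adjusted p between 0.0858 and 0.431).

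Of p53 targets, 13 of 25 were set apart higher and 3 lower (median difference 0.65), with the death receptor Fas (2.71), the kinase Plk2 (1.49) and Phlda3 (1.30) highest and Gadd45b (-1.34) and Bax (-1.28) lowest. Of interferon and antigen presentation genes, 10 of 20 were set apart higher and 4 lower (median difference 1.15, and 0.36 over the 15 bright members, with 6 higher and 4 lower). Here the immunoproteasome subunit Psmb8 (5.26, 2 of the other 9 arrays above background), Oasl2 (4.42), B2m (1.97), H2-K1 (1.57) and H2-D1 (1.48) were higher, and the signalling factors Stat2 (-1.39) and Irf9 (-0.69) and the membrane protein Ifitm3 (-0.76) lower. Of apoptosis genes, 6 of 22 were set apart higher and 10 lower (median difference -0.44), with Bcl2l11 (1.46) and Casp8 (1.21) higher and Bid (-0.97) and Casp9 (-0.75) lower. Growth factor and binding protein genes of the insulin-like growth factor group were split: 6 of 18 were set apart higher and 4 lower (median difference 0.18, and -0.48 over the 12 bright members, with 2 higher and 4 lower), with Igfbp5 (5.18, 2 of the other 9 arrays above background) and Igfbp3 (3.16) higher and Pdgfa (-1.28) lower. Plk2, Phlda3, B2m, Irf9, Ifitm3, Casp8 and Pdgfa lost their calls with slide as a random block (adjusted p between 0.0651 and 0.309).

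Among chromatin genes, the DNA methylation list had 5 of 18 set apart higher and 8 lower. Dnmt3l, the cofactor of the de novo enzymes, stood at 5.68, 5.66 and 5.63 on the wild-type LIF arrays, against 0.96, 1.16 and 1.12 in wild-type 2i+LIF, 4.74, 3.98 and 4.58 for Nat1-null LIF and 2.61, 2.81 and 2.85 for Nat1-null 2i+LIF, a difference of 2.90, and Nat1-null LIF was the nearest group. The maintenance factors Dnmt1 (-1.06) and Uhrf1 (-0.92) and the demethylating enzymes Tet2 (-1.87) and Tet1 (-1.14) were set apart lower. Of the Polycomb group, 5 of 28 were set apart higher and 9 lower (median difference -0.31). These shares, 17.9% and 32.1%, were close to the 17.8% and 31.6% over all bright genes. Ezh2 (-0.61), Eed (-0.42) and Cbx6 (-1.74) were lower, and Phc2 (1.36) and Bmi1 (0.56) higher. Of histone genes, 1 of 12 were set apart higher and 3 lower (median difference -0.11), or 8.33% and 25%. Of cell cycle genes, 6 of 30 were set apart higher and 15 lower (median difference -0.39): cyclin D2, Ccnd2 (4.33), and the inhibitor Cdkn2b (2.32) were higher, and E2f2 (-1.77), Cdkn1b (-1.66) and Ccnb1 (-0.39) lower. Without scaling the medians of the DNA methylation, Polycomb and histone lists were 0.06, 0.03 and 0.24, against -0.29, -0.31 and -0.11 with it. Eed lost the call with slide as a random block (adjusted p = 0.184).

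Of translation initiation factors, 13 of 33 were set apart higher and 3 lower (median difference 0.10). Eif4g2 differed by 2.23 from the mean, made up of 0.29 against wild-type 2i+LIF, 3.22 against Nat1-null LIF and 3.20 against Nat1-null 2i+LIF, and Eif4g3 by 1.45; Eif4g1 did not pass the test (-0.09) and the helicase Eif4a2 was set apart lower (-1.49). With slide as a random block the adjusted p was 0.0956 for Eif4g2 and 0.0781 for Eif4g3. Of cholesterol synthesis genes, 0 of 24 were set apart higher and 11 lower (median difference -0.46), with Insig1 (-1.20) and Cyp51 (-0.91) among them. Of unfolded protein response genes, 1 of 23 were set apart higher and 8 lower (median difference -0.19), with the chaperones Hyou1 (-0.999) and Hspa5 (-0.51) lower and Xbp1 not past the test (0.01). The share of that list set apart lower, 34.8%, was close to the 31.6% of all bright genes. Of ATF4 and integrated stress response genes, 7 of 25 were set apart higher and 3 lower (median difference 0.21), with Phgdh (1.52) and Atf3 (1.95) higher and Ddit3 (-0.80) lower. Of lysosome and autophagy genes, 2 of 28 were set apart higher and 12 lower (median difference -0.29), with Tfeb (-1.62) lower. Of oxidative stress genes, 6 of 20 were set apart higher and 3 lower (median difference 0.29), with Gstm2 (2.30) highest. Hspa5, Phgdh, Ddit3 and Gstm2 lost their calls with slide as a random block (adjusted p between 0.0509 and 0.3). Eif4g1 passed the test without Nat1-null LIF replicate 2 (adjusted p = 0.0331).

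Of endoderm genes, 6 of 20 were set apart higher and 7 lower (median difference 0.57, and -0.96 over the 13 bright members, with 1 higher and 7 lower); Gata6 (-1.84) and Gata4 (-1.76) were lower and Dab2 (3.82, 4 of the other 9 arrays above background) higher. Of primitive streak and mesoderm genes, 4 of 15 were set apart higher and 4 lower (median difference -0.09, and -0.50 over the 8 bright members, with 1 higher and 4 lower), with Gsc (-2.52) lower and Wnt3 on no other array (at least 3.03-fold higher). Of endothelial and blood genes, 11 of 15 were set apart higher and 3 lower (median difference 1.08, and 0.26 over the 10 bright members, with 6 higher and 3 lower), with Flt1 (2.60) higher and Tal1 (-2.21) lower. By kind of gene, 26.7% of protein-coding genes were set apart higher and 25.4% lower, against 20.2% and 23.1% of long noncoding RNAs and 11.8% and 25.6% of probes named by coordinates. For 3022 genes set apart that had several probes, 1627 had all probes set apart the same way, and 150 had a probe set apart the other way. Gata6, Gsc and Tal1 lost their calls with slide as a random block (adjusted p between 0.054 and 0.427).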

How the data were processed

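Total RNA of 12 samples was hybridised to single-colour arrays, and the groups were taken from the sample titles. The authors' deposited series table gives a log2 value per probe; scanner files processed with Feature Extraction 10.7.3.1, per the file headers, give the processed, median and background intensity of each spot. The deposited log2 values correlated at 0.999796 or more with the log2 processed intensity of the same array and had their 75th percentile near 0, so they were read as log2 processed signal minus that percentile. How the authors made them is not given in the sources used here.

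Of 55681 probes, 27650 took a gene symbol from the RefSeq gene table, by matching the RefSeq accession that the scanner files give the probe; the others kept the name in those files. A probe was kept (33927 were) if every array of some group showed it well above background, and of a gene's probes the one brightest on average across the 12 arrays stood for it, leaving 24807 genes, 15597 of them with a symbol. Group means were fitted with limma 3.58.1 in R 4.3.3 (lmFit, contrasts.fit and eBayes, 1 mean for each of the 4 groups), the main contrast was wild-type LIF minus the mean of the other 3 group means, and p-values were adjusted by Benjamini-Hochberg over all genes, with 0.05 as the threshold. The fit was tested on simulated data. Summaries and figures used Python 3.11.15 with numpy 2.4.6, pandas 2.3.3 and matplotlib 3.10.9. A fold given as "at least" sets the brighter side's mean against the lowest signal well above background on the dim side's arrays, or the dim probe's own if higher, array by array.

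The members and gene lists were chosen with earlier results of these data known. Genes named in the text were 20 fixed genes, the largest differences, bounds and smallest spans in each direction, the genes at the edge of the rule, the largest differences not set apart, up to 4 members of each of 40 lists, and further list members chosen after their values were seen. Some genes that this rule names are not reported here. Hox genes, chromosomes, neighbouring runs and promoter letters were likewise described after seeing the data.

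Alternatives were the scanner values, normexp background correction (offset 50, on the median signal), no scaling, quantile normalization, other filters, the mean of a gene's probes, a replicate block, slide as a random block (consensus correlation 0.44), and leaving out each group and each array. The fit with slide as a random block used 2 means, wild-type LIF and all other arrays together. Replicate numbers did not pair the samples: of 18 same-numbered pairs of arrays, 1 had deviations correlated above 0.1 (range -0.05 to 0.21).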

Additional observations from a re-analysis of the deposited data

Results flagged for a closer look

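Dusp6, the phosphatase that ERK induces and that switches ERK off, differed from wild-type LIF in opposite directions in different groups. Its level in wild-type LIF was above that in wild-type 2i+LIF by 2.59 (adjusted p = 6.88e-07 in limma, n = 3 arrays a group) and above that in Nat1-null 2i+LIF by 1.35 (adjusted p = 3.52e-05), while the difference from Nat1-null LIF was -0.49 (adjusted p = 0.0195). An F-test found that the other 3 groups differed for this gene (adjusted p = 9.63e-07).

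Cdh1, E-cadherin, showed a difference of 0.15 from wild-type 2i+LIF (adjusted p = 0.0614), 0.24 from Nat1-null LIF (adjusted p = 0.00702) and -0.43 from Nat1-null 2i+LIF (adjusted p = 0.000172), and the other 3 groups differed in the F-test of limma (adjusted p = 2.75e-05). For both genes wild-type LIF lay above some groups and below another, so these differences partly cancel in the contrast with the mean of the other groups.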

How the results depend on the processing

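Without scaling between arrays, 9034 genes were set apart higher and 2045 lower, 13162 and 4437 were called, and 7998 and 1708 were called in all 3 single comparisons; the cause was not tested. With only probes bright on all 12 arrays, which tests 19181 genes, 3425 were set apart higher and 5422 called higher, and 38.3% of calls were higher, against 47.2% with the filter used. A gap of at least 1 left 1509 higher and 616 lower, and a difference of at least 1 on the log2 scale left 3664 and 1907 calls. With slide as a random block, in the fit of 2 means, 2906 and 3522 genes were called, and 53 of 224 named genes lost their call. Under normexp 41.6% of calls were higher. The replicate block, for numbers that do not pair the samples, gave 8107 higher and 9004 lower calls. Leaving out 1 array at a time gave 7372 to 8396 higher and 8227 to 9452 lower calls. Of 5307 values of named genes under alternatives, 5221 kept direction and call. The sign of Cdh1, which was not called, also turned under quantile normalization (0.117), with slide as a random block (0.0176) and without Nat1-null LIF replicate 1 (0.0025, in a range of -0.0322 to 0.0025 over single arrays left out). Signs turned without scaling for Cdh1 (0.33), Rcc1l (0.039), Dmtf1 (0.031), Shisa5 (0.018), Gm11240 (0.10) and Slc25a51 (0.017), for Cdh1 without Nat1-null 2i+LIF (0.19), and for Fam24b with the mean of its probes (0.012). Medians of 12 of 40 lists changed sign in some setting. Without scaling they were 0.19 for ERK, 0.25 for Wnt, 0.17 for oxidative phosphorylation, 0.16 for unfolded protein response, 0.06 for DNA methylation, 0.03 for Polycomb, 0.24 for histones and 0.06 for lysosome genes. Over bright probes they were -0.96 for endoderm, -0.04 for immediate early, -0.18 for Nodal and BMP and -0.48 for insulin-like growth factor genes. Low signal over background limits single values of genes bright in wild-type LIF alone.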
